A study of Mus musculus with 2 samples.

Results

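The genes described here are the Rab GTPases, taken as the table columns named Rab, a number and at most 2 further letters or digits. In all, 62 of the 27032 gene columns matched, Rab43 being left out, and 58 of them encode Rab GTPases. The other 4 matched by name only: Rab3ip and Rab5if encode proteins that are not GTPases, and Rab10os and Rab26os are opposite-strand transcripts. Rab GTPases are small switches that sit on a membrane in their GTP-bound form and recruit the motors, tethers and coats that move and fuse vesicles. Each marks a particular compartment: Rab5 proteins the early endosome, Rab7 the late endosome and lysosome, Rab11 proteins the recycling endosome, and Rab1 and Rab6 proteins the Golgi. Guanine nucleotide exchange factors load them with GTP, and GTPase-activating proteins of the TBC family switch them off. In phagocytes they set how fast a phagosome matures, and in dendritic cells (DCs) how long antigen is kept and where it meets MHC molecules.

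CD11c+ spleen cells of wild-type mice had been enriched on magnetic beads, tagged for multiplexing and captured on the BD Rhapsody system, and the deposited tables hold the unique molecular identifier (UMI) count of every gene in every cell of 2 samples. Both samples share the genotype, the tissue and the bead selection. The study's methods give adult C57BL/6J mice, males and females, for its experiments in general, but state neither the age, sex and number of mice behind each sample nor a treatment. The 2928 and 2725 cells kept in replicates 1 and 2 had median totals of 12220 and 11435 UMIs, and no cell identifier was shared. A cell joined the first of 9 classes whose UMI rule it met, which placed 79.0% and 77.9% of the cells.

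The classes, with their cells in replicates 1 and 2, were macrophages (293 and 130), CCR7 mature DCs (138 and 173), conventional type 1 DCs (cDC1s, 684 and 570), plasmacytoid DCs (pDCs, 13 and 19), B cells (65 and 172), T cells (41 and 159), NK cells (38 and 36), DCIR2 cDC2s (556 and 456) and CLEC10A cDC2s (484 and 408). Of the markers not used in the rules, 9 of 9 for macrophages, 5 of 6 for mature DCs, 5 of 6 for cDC1s, 4 of 6 for pDCs and all of those for B (5), T (6) and NK cells (6) were highest in their own class in both samples. No DCIR2 marker of 3 was highest over all 9 classes, but all 3 were above the other resident cDC classes, as were 3 of 4 for CLEC10A cDC2s. Itgax, which encodes CD11c, was at 47.9 to 126 CPM (UMIs of the gene per 1000000 UMIs of the class) in B cells, T cells and macrophages and at 442 to 895 CPM in the other classes. Of the pDC class, 4 and 7 cells met no other rule, and Cd209a, a marker of CLEC10A cDC2s, was at 394 and 473 CPM there.

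Levels are the summed UMIs of a class in a sample as CPM, and they are set against each other between classes for the same gene, not between genes. Of the 58 GTPase genes, 37 reached 20 CPM in both samples of at least 1 class. The other 21 had at least 1 UMI each and a highest class mean of 17.8 CPM, that of Rab3d in NK cells. Of the 37, the highest class mean was in macrophages for 12, NK cells for 9, cDC1s for 6, mature DCs for 4, pDCs for 4, T cells for 1 and DCIR2 cDC2s for 1. For 20 of the 37 both samples of the highest class lay above both of the next class. For 6 more the order held within each sample but the ranges overlapped, and for 11 it was not kept. The gap between the highest and lowest class had a median of 2.28-fold over the 34 genes with UMIs in every class. It was under 2-fold for 8 genes and 5-fold or over, or against a class at 0, for 13. None of these counts was made for all genes, so they do not set the Rab genes apart from others.

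**Figure D1:**
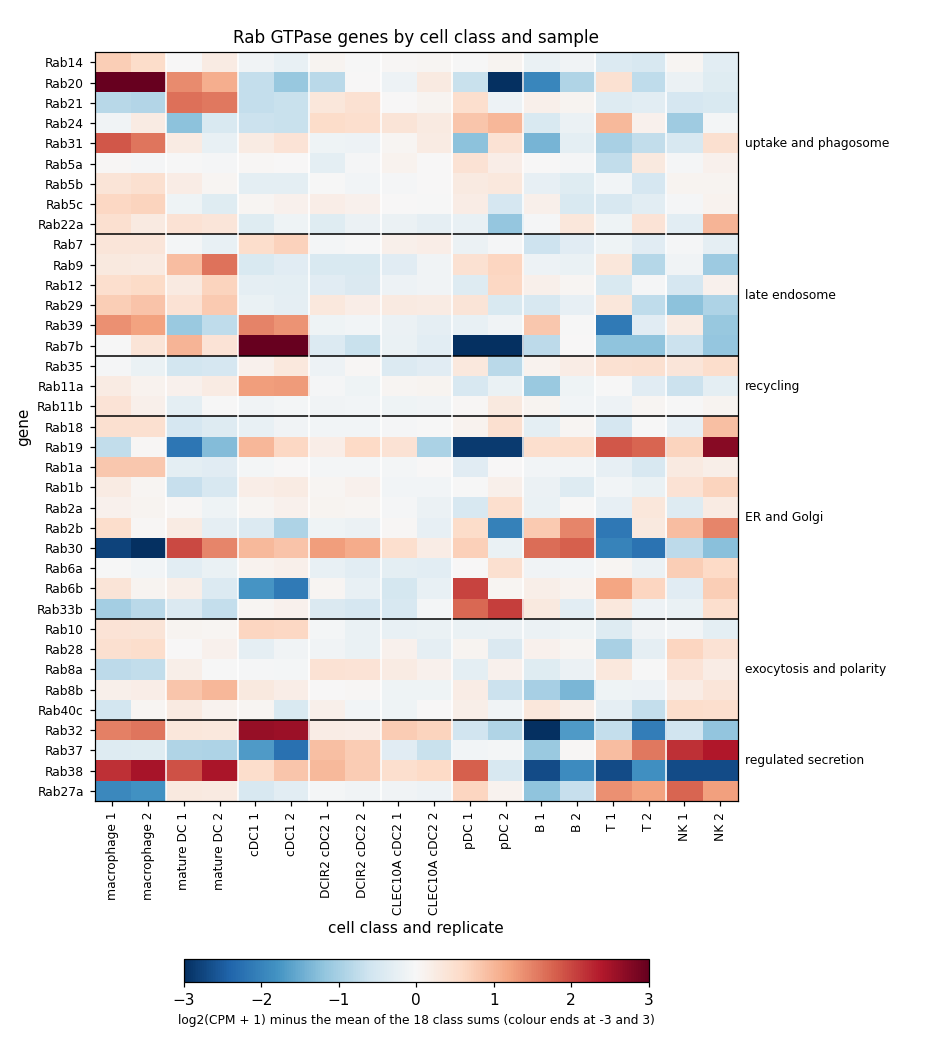
Heat map of the 37 Rab GTPase genes with at least 20 CPM in both samples of a class, grouped by role. Each column is a cell class in replicate 1 or 2, and the colour is log2(CPM + 1) minus the gene's mean over the 18 sums, ending at -3 and 3. Rab7b in cDC1s and Rab20 in macrophages reach the red end of the scale, and Rab30 is blue in macrophages and T cells.

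Summed over all 58 GTPase genes, cDC1s carried 4233 and 4283 CPM of Rab message and macrophages 4069 and 3982 CPM, above mature DCs at 3679 and 3659 CPM. The lead of cDC1s rested on Rab7b, since without it macrophages had 4060 and 3970 CPM and cDC1s 3743 and 3783 CPM. B cells were lowest in both samples, at 2770 and 2798 CPM, but their range overlapped that of T cells, at 2792 and 2808 CPM. By role, the 10 genes of uptake and the phagosome summed to 1247 and 1230 CPM in macrophages. They had 1149 and 1116 CPM in mature DCs and 710 and 710 CPM in cDC1s. Rab21 alone gave 439 and 419 CPM of the sum in mature DCs, and the next class, DCIR2 cDC2s, had a mean of 184 CPM of it. Rab20 gave 129 and 165 CPM of the uptake sum in macrophages and 25.9 and 20.5 CPM in mature DCs. The macrophage lead over mature DCs rested on Rab20. The uptake sums without Rab20 or Rab21 were not taken. The 10 late endosome genes were highest in cDC1s, with 1096 and 1145 CPM, and macrophages followed with 621 and 620 CPM. Without Rab7b these classes overlapped, at 606 and 646 CPM in cDC1s and 612 and 608 CPM in macrophages. Every other class had 340 to 481 CPM of the 10 late endosome genes. Recycling genes and genes of regulated secretion also summed highest in cDC1s, at 390 and 405 CPM and at 338 and 336 CPM. Rab11a gave 182 and 184 CPM of the recycling sum in cDC1s. In macrophages it gave 89.1 and 80.8 CPM of 356 and 304 CPM. The cDC1 lead over macrophages rested on Rab11a, and the recycling sum without it was not taken. Rab32 gave most of the regulated secretion sum in cDC1s. Without it the regulated secretion genes summed to 42.6 and 47.4 CPM in cDC1s, 70.3 and 63.6 CPM in macrophages and 178 and 177 CPM in NK cells. With Rab32 counted, B cells were lowest, at 61.2 and 55.3 CPM.

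**Figure D2:**
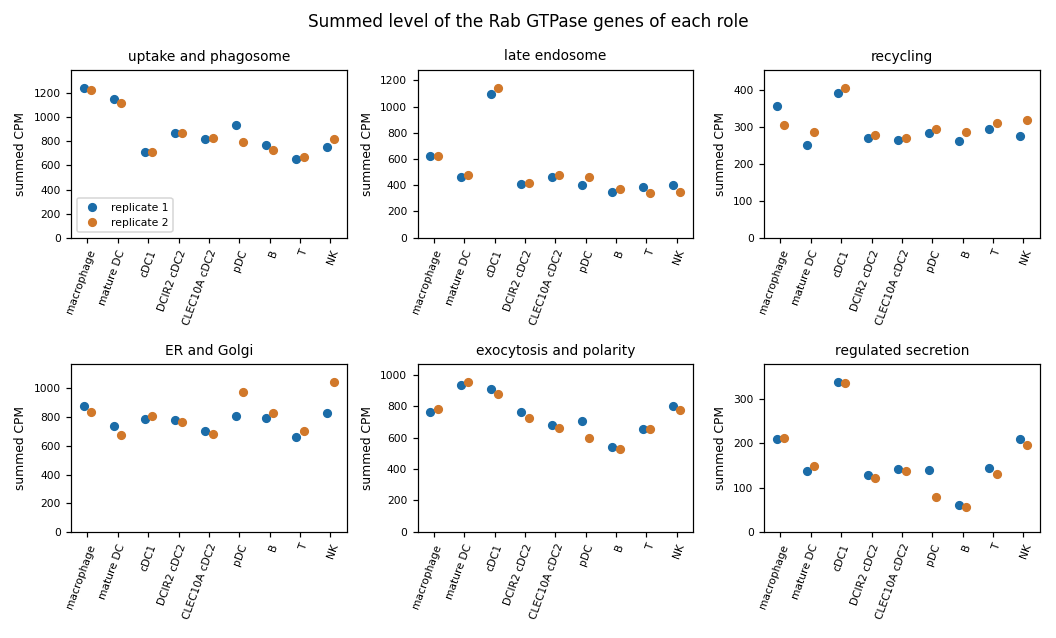
Summed CPM of the Rab GTPase genes of 6 roles in each of the 9 cell classes, with 1 point for each of replicates 1 and 2. The late endosome sum of 1096 and 1145 CPM in cDC1s is above all other classes, a lead that rests on Rab7b. The uptake sum is highest in macrophages, at 1247 and 1230 CPM, a lead over mature DCs that rests on Rab20.

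The comparisons between classes used 1 edgeR quasi-likelihood fit to the class sums of both samples, over 11903 genes of which 44 were Rab GTPase genes. A gene was called at a Benjamini-Hochberg adjusted p under 0.05 and a log2 fold change over 1 in size. Resident cDCs were the average of cDC1s and both cDC2 classes. Their levels are given as the plain mean of the 3 classes' CPM, while fold changes rest on the mean of the logs, which weighs a gene high in only 1 of the 3 differently. The 4 comparisons against resident cDCs share these reference sums.

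Rab genes of the macrophages were compared with resident cDCs, since macrophages degrade what they take up and cDCs preserve part of it. Of 44 tested, 7 were called higher and 3 lower in macrophages, beside 16.5% and 14.5% of all genes. The Rab share in either direction was 22.7%, beside 31%, and by adjusted p alone it was 27 of 44, beside 54.1%. The median log2 fold change was 0.41 for the Rab genes and -0.03 for all genes. The 7 higher genes were Rab20, Rab31, Rab34, Rab38, Rab39, Rab13 and Rab6b. The first 3 are among the 10 genes of uptake and the phagosome. Some of the 7 were low in macrophages, with a mean of 7.63 CPM for Rab34 and 8.94 CPM for Rab13. Rab6b was at 18.3 and 14.7 CPM there.

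Rab20, which acts on maturing phagosomes and lies at chr8:11453518-11478710 (GRCm38, minus strand), was at 129 and 165 CPM in macrophages and at 5.96 and 7.94 CPM in resident cDCs. The groups were far apart in both samples (log2 fold change 4.54, SE 0.18, edgeR adjusted p = 2.55e-14). A Rab20 UMI was present in 77.1% (95% exact binomial interval 71.9 to 81.8%) and 83.8% (76.4 to 89.7%) of macrophages, and in 34.8% and 46.9% once each cell was thinned to 4000 UMIs. In mature DCs, the next class, it was in 17.4% (11.5 to 24.8%) and 11.6% (7.21 to 17.3%) of cells, or 6.62% and 5.88% after thinning.

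Rab31, which serves traffic between the trans-Golgi and endosomes, was at 98.2 and 81.6 CPM in macrophages and at 27.7 and 30.1 CPM in resident cDCs (log2 fold change 1.73, SE 0.15, edgeR adjusted p = 6.70e-09). Rab38, a GTPase of lysosome-related organelles, had 28.4 and 35.1 CPM in macrophages against 9.405 and 9.75 CPM (log2 fold change 1.78, SE 0.21, edgeR adjusted p = 7.56e-07). Rab39, found on late endosomes and phagosomes, had 81.9 and 73.8 CPM against 48.5 and 45.2 CPM. Its log2 fold change of 1.03 (SE 0.17, edgeR adjusted p = 2.38e-05) stood at the bound, and it dropped under the bound with library totals in place of TMM factors (0.97), with no filter on low counts (0.92) and with no filter on cells (0.95).

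The 3 other macrophage calls were lower. Rab30, a Golgi GTPase at chr7:92741603-92844535 on the plus strand, was at 5.24 and 3.26 CPM in macrophages against 80.9 and 72.2 CPM in resident cDCs (log2 fold change -3.94, SE 0.23, edgeR adjusted p = 1.29e-11). T cells held little of it too, 9.66 and 8.14 CPM, whereas mature DCs had 166 and 116 CPM and B cells 135 and 147 CPM. Rab27a, which docks secretory lysosomes, had 6.33 and 6.93 CPM in macrophages against 23.2 and 23.5 CPM (log2 fold change -1.75, SE 0.21, edgeR adjusted p = 4.18e-07).

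Rab7b, the third, was at 8.68 and 11.8 CPM in macrophages, and its low call rested on cDC1s. Against both cDC2 classes alone, a reference chosen after the levels were seen, its log2 fold change was 0.73 and it was not called. In that comparison 9 Rab genes were called in place of 10, beside 31.2% of all genes, and Rab32 was among them with a log2 fold change of 1.24. The call of Rab6b was lost too, with a log2 fold change of 0.66. Macrophages also held most of the red cell message, with a summed level of 5 erythroid genes of 3742 and 914 CPM against 5.33 to 122 CPM in the other classes. Its part in the macrophage results was not tested.

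Other uptake and late endosome genes were also highest in macrophages, but within the fold bound. Rab14, which links the Golgi and early endosomes and is found on phagosomes, had 361 and 317 CPM there and 154 to 254 CPM elsewhere. Rab5c had 253 and 259 CPM in macrophages and 116 to 192 CPM elsewhere, while Rab5b ranged from 92.8 to 186 CPM and Rab5a from 35.4 to 79.96 CPM over all classes. Rab12, which directs receptors to degradation, had 70.3 and 73.8 CPM in macrophages and 59.3 and 78.5 CPM in mature DCs, so these classes overlapped. Rab29 was at 34.4 and 37.1 CPM in macrophages and 27.7 and 35.5 CPM in mature DCs, which overlapped as well.

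**Figure D3:**
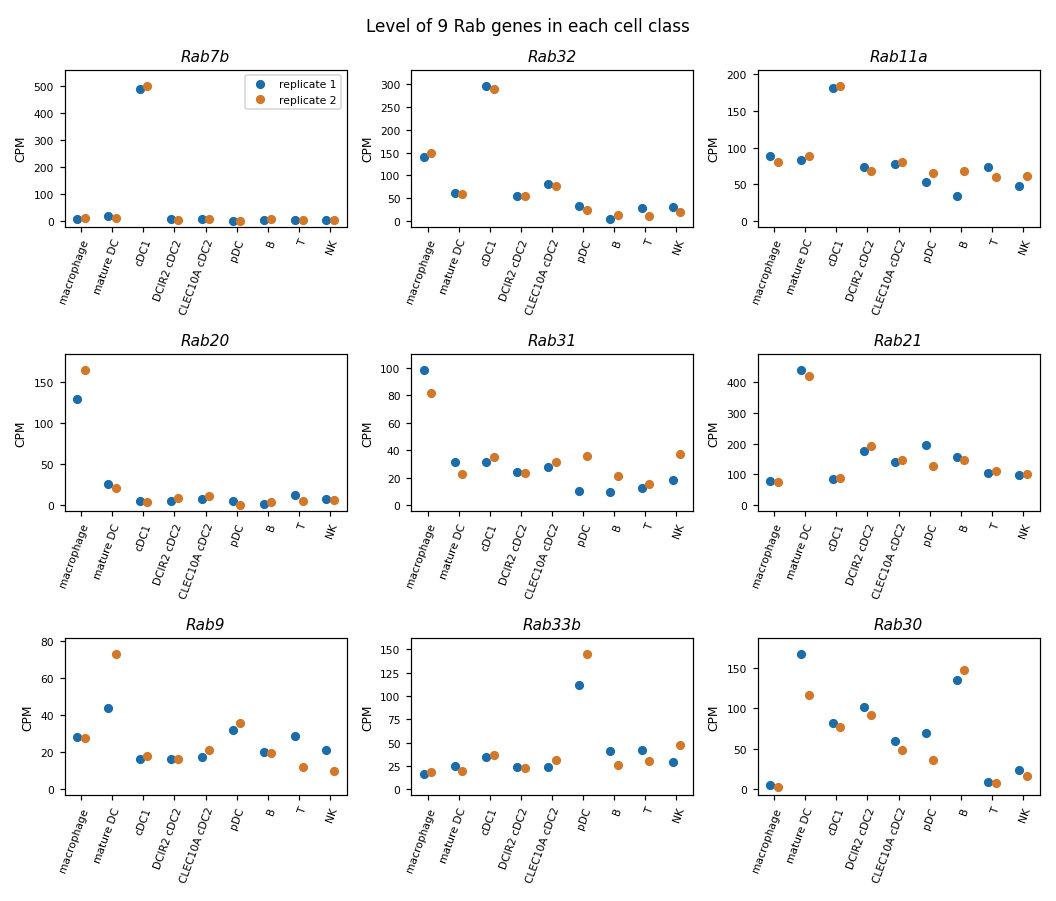
Level in CPM of 9 Rab genes in each of the 9 cell classes, with 1 point per replicate and a separate linear axis from 0 for each gene. Rab7b, Rab32 and Rab11a peak in cDC1s, Rab20 and Rab31 in macrophages, Rab21 and Rab9 in mature DCs and Rab33b in pDCs, and Rab30 is lowest in macrophages and T cells.

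Mature DCs, which have switched from taking up antigen to showing it to T cells, had 4 Rab genes called higher and 2 lower than resident cDCs, beside 10.8% and 5% of all genes. In either direction this was 13.6% of 44, beside 15.8%, and by adjusted p alone 18 passed, beside 33.2%. The median log2 fold change was 0.02 for the Rab genes and -0.02 for all genes. The genes higher in mature DCs were Rab21, Rab9, Rab20 and Rab38, of the endosome and lysosome routes.

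Rab21, which carries integrins through early endosomes and lies at chr10:115287084-115315594 on the minus strand, was at 439 and 419 CPM in mature DCs and at 134 and 142 CPM in resident cDCs. No other class exceeded 197 CPM in either sample, and macrophages were lowest at 78.5 and 75.9 CPM (log2 fold change 1.76, SE 0.10, edgeR adjusted p = 2.79e-11). A UMI of Rab21 was in 92.8% (87.1 to 96.5%) and 88.4% (82.7 to 92.8%) of mature DCs. Rab9, which returns mannose 6-phosphate receptors from late endosomes to the Golgi, had 44.1 and 73.0 CPM against 16.8 and 18.5 CPM (log2 fold change 1.82, SE 0.19, edgeR adjusted p = 3.14e-07).

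Rab20 stood at 25.9 and 20.5 CPM in mature DCs, above the 5.96 and 7.94 CPM of resident cDCs (log2 fold change 1.86, SE 0.29, edgeR adjusted p = 3.45e-05) and under the level in macrophages. Rab38 had 23.3 and 34.5 CPM against 9.405 and 9.75 CPM (log2 fold change 1.68, SE 0.25, edgeR adjusted p = 2.55e-05). Rab39 was lower, at 13.9 and 17.99 CPM against 48.5 and 45.2 CPM (log2 fold change -1.26, SE 0.26, edgeR adjusted p = 0.000732), and was not called against cDC2s alone, with a log2 fold change of -0.66. The other lower gene, Rab19, was under 20 CPM in both groups.

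Rab8b, which guides carriers to the plasma membrane, was highest in mature DCs at 412 and 465 CPM and had 89.2 to 295 CPM elsewhere. It was not called against resident cDCs and was called when cDC1s were left out of the reference, with a log2 fold change of 1.09. Without cDC1s, 11 Rab genes were called in mature DCs in place of 6, 8 of them higher, beside 15.1% of all genes. The added genes were Rab8b, Rab30 (log2 fold change 1.08), Rab7b (1.34) and Rab13 among those higher, and Rab24 and Rab37 among those lower.

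The cDC1s, the DCs that cross-present cell-bound antigen to CD8+ T cells, were compared with the average of both cDC2 classes. Of the Rab genes, 5 were called higher in cDC1s (Rab7b, Rab32, Rab39, Rab11a, Rab13) and 2 lower (Rab37, Rab6b), beside 7.3% and 9.51% of all genes. In either direction this was 15.9%, beside 16.8%. The median log2 fold change was 0.19 for the Rab genes and 0.00 for all genes. By adjusted p alone, 13 were higher and 5 lower, beside 36% of all genes. Among the called genes, Rab13 was low, with a mean of 6.31 CPM in cDC1s. Rab37 and Rab6b had means of 2.20 and 2.84 CPM there, and Rab6b was at 9.16 to 14.4 CPM in the cDC2 classes.

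Rab7b, a late endosome GTPase known for traffic toward the trans-Golgi and for the turnover of Toll-like receptors, lies at chr1:131688695-131715439 on the plus strand. It was at 490 and 500 CPM in cDC1s, from 6503 and 5906 UMIs, and at 6.93 and 6.001 CPM in cDC2s. No other class exceeded 18.9 CPM in either sample. The log2 fold change over cDC2s was 6.42 (SE 0.14, edgeR adjusted p = 2.41e-16). A Rab7b UMI was present in 93.0% (90.8 to 94.8%) and 94.7% (92.6 to 96.4%) of cDC1s, which is 77.8% and 82.0% after thinning to 4000 UMIs. In the other classes it was in at most 13.8% of cells, or 4.10% after thinning, and that highest share was in macrophages.

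Rab32, which with Rab38 serves lysosome-related organelles, was at 296 and 289 CPM in cDC1s against 68.6 and 65.9 CPM in cDC2s (log2 fold change 2.31, SE 0.13, edgeR adjusted p = 2.05e-11). Macrophages came next with 139 and 149 CPM, and lymphocyte classes had 4.71 to 31.8 CPM. Rab39 had 89.7 and 80.3 CPM in cDC1s against 27.9 and 27.7 CPM (log2 fold change 1.78, SE 0.17, edgeR adjusted p = 4.13e-08), which overlapped the 81.9 and 73.8 CPM of macrophages. Rab11a, of the recycling endosome, had 182 and 184 CPM against 75.6 and 74.5 CPM (log2 fold change 1.45, SE 0.12, edgeR adjusted p = 1.01e-08), and its level in every other class was 34.5 to 89.1 CPM.

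Rab7, the general late endosome GTPase, was highest in cDC1s too, at 440 and 490 CPM, with 395 and 396 CPM in macrophages and 198 to 351 CPM in the other classes. Rab10, which serves exocytosis and also acts on phagosomes, had 423 and 418 CPM in cDC1s, 359 and 351 CPM in macrophages and 206 to 283 CPM elsewhere. Some uptake genes had lower levels in cDC1s. Rab21 was at 85.3 and 87.4 CPM in cDC1s, under the 177 and 192 CPM of DCIR2 cDC2s and the 140 and 148 CPM of CLEC10A cDC2s, and Rab24, tied to autophagy, was at 10.9 CPM ± 0.179 (SD, n = 2) against 21.4 to 26.5 CPM in both cDC2 classes. Rab24 overlaps Prelid1 on the opposite strand, which had 5848 UMIs against its 1112, so its level is uncertain. The 4 neutrophil genes summed to 120 CPM in cDC1s of replicate 1 and to 6.52 CPM in replicate 2, and their part in the cDC1 results was not tested.

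**Figure D4:**
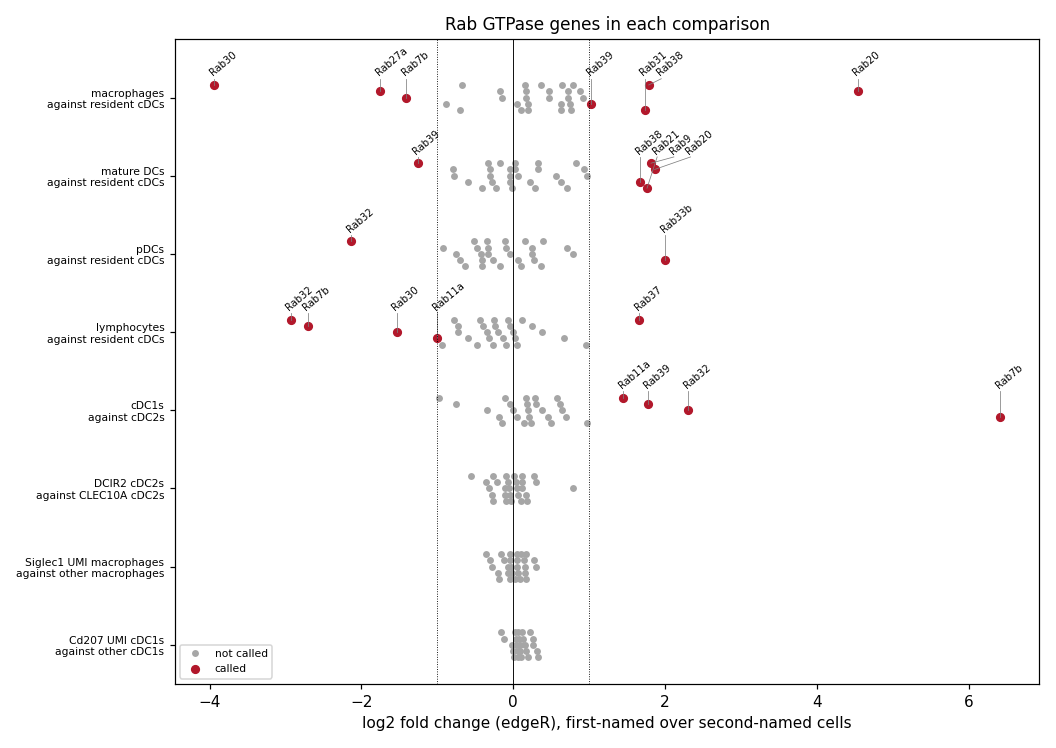
Log2 fold changes by edgeR of the Rab GTPase genes in each comparison, for genes with at least 20 CPM in both samples of the higher group and UMIs in every sample of both. Grey points were not called and red points were called, and dotted lines mark the bounds of -1 and 1. The widest fold is Rab7b in cDC1s over cDC2s at 6.42, and the lower 3 rows hold no red point, Rab37 of the cDC2 comparison being under 20 CPM in replicate 2.

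The bases before the start of some of these genes are shown because Rab32, Rab39 and Rab11a were called together in cDC1s, Rab21 in mature DCs and Rab20 in macrophages. They come from RefSeq promoter windows on GRCm38.p6, which matched 51 of the 62 genes, and each runs 5′ to 3′ on the gene's strand, up to 250 bases before the start and stopped at the first exon of the GENCODE annotation. The 30-base sites of Rab32 and Rab20 lie before the RefSeq start but inside the first exon that GENCODE annotates. Capitals mark a match to a searched motif.
Rab32, chr10:10558266-10558457, minus strand: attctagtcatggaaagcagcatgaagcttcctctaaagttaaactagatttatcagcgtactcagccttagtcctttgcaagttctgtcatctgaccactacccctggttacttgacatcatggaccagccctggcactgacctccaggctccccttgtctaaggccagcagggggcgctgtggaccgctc
Rab39, chr9:53706233-53706482, minus strand: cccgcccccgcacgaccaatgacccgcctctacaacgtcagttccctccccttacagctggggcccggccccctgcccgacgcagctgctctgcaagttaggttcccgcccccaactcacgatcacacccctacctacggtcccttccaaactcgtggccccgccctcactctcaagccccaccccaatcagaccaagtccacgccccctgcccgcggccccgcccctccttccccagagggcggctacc
Rab11a, chr9:64737759-64738006, minus strand: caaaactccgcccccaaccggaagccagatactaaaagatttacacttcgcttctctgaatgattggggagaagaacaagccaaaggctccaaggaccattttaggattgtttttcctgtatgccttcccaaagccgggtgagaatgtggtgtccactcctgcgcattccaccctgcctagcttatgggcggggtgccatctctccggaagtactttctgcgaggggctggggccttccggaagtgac
Rab21, chr10:115315595-115315841, minus strand: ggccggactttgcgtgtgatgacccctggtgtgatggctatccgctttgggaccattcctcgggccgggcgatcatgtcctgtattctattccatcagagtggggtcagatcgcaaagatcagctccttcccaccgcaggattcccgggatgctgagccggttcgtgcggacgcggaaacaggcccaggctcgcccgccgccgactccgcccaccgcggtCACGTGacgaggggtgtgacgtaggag
Rab32 site, chr10:10558232-10558261, minus strand: tagccagggaaGAGGAAGTgccgggaccag
Rab20 site, chr8:11478669-11478698, minus strand: cggccgggcaccCACGTGgtcgcagggctg

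Both strands of the 250 bases were searched for CACGTG (an E-box), TGANTCA (the AP-1 site), GAGGAAGT (a PU.1 site), and an ETS-IRF composite element and an NF-kB site of 10 letters each. CACGTG was in 4 of the 31 described Rab genes with a window, Rab20, Rab21, Rab27a and Rab5a, and in 6.02% of all 32851 windows. GAGGAAGT was in 2 of 31, Rab32 and Rab2b, and in 2.44% of all windows. TGANTCA was in 0 of 31 and in 6.75% of all, the ETS-IRF element in 1 and in 2.30%, and the NF-kB site in 2 and in 1.41%. The printed matches do not overlap each other, and a match says only that these letters are there.

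The cDC2 subsets differed in few Rab genes. Against CLEC10A cDC2s, DCIR2 cDC2s had 1 Rab gene called higher and 0 lower, beside 1.1% and 2.44% of all genes, or 2.27% in either direction beside 3.54%. It was Rab37, of secretory granules, named after its values were seen because it just missed the level asked for, with 22.3 and 19.99 CPM in DCIR2 cDC2s and 8.79 and 6.84 CPM in CLEC10A cDC2s (log2 fold change 1.37, SE 0.29, edgeR adjusted p = 0.00554). The call was lost when cells were thinned to 4000 UMIs. Rab37 overlaps Cd300lf on the opposite strand, and no source states the strand setting of the counting, so their reads cannot be told apart. By adjusted p alone, Rab30 was higher and Rab32 lower in DCIR2 cDC2s, beside 5.54% of all genes. Rab8a, of exocytosis, reached its highest level in DCIR2 cDC2s, at 215 and 209 CPM, which overlapped NK cells at 209 and 183 CPM.

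In pDCs, 2 Rab genes were called higher (Rab33b, Rab6b) and 2 lower (Rab7b, Rab32) than in resident cDCs, beside 3.62% and 3.13% of all genes. In either direction this was 9.09%, beside 6.75%, and by adjusted p alone 7 passed, beside 9.66%. The median log2 fold change was -0.21 for the Rab genes and -0.16 for all genes. Rab33b, which acts at the Golgi and in autophagosome formation, had 112 and 144 CPM in pDCs, from 21 and 40 UMIs, against 27.7 and 30.5 CPM (log2 fold change 2.00, SE 0.26, edgeR adjusted p = 2.66e-05). No other class exceeded 47.5 CPM of it in either sample. Rab32 had 32.0 and 25.3 CPM in pDCs against 144 and 140 CPM (log2 fold change -2.13, SE 0.34, edgeR adjusted p = 0.000256).

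Rab7b had 0 UMIs in pDCs of both samples, which with 3 counts as the limit allows up to 16.0 and 10.8 CPM, so no fold is given. Its call and that of Rab6b were lost against cDC2s alone, which left 2 called, beside 5.65% of all genes. Rab6b, a Golgi GTPase best known from neurons, was at 58.6 and 14.4 CPM in pDCs, so the samples differed widely. The 13 and 19 cells limit each of these values. A list set for monocytes (Ly6c2, Vcan, Fn1 and Plac8) summed to 1946 and 1972 CPM in pDCs against 22.02 to 819 CPM in the other classes. Vcan was at 0 in pDCs, so the sum came from the other genes of the list. The part of these genes and of the CLEC10A cDC2 marker Cd209a in the pDC results was not tested.

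Lymphocytes, as the average of B, T and NK cells, had 4 Rab genes called higher and 5 lower than resident cDCs, beside 7.25% and 12.5% of all genes. The split was 6 and 4 with library totals in place of TMM factors and 5 and 4 with DESeq2. In either direction this was 20.5%, beside 19.7%, and by adjusted p alone 25 passed, beside 39.6%. The median log2 fold change was -0.24 for the Rab genes and -0.07 for all genes. The lower genes were Rab38, Rab32, Rab7b, Rab30 and Rab11a, and the higher ones Rab37, Rab6b, Rab23 and Rab27b. Of the higher ones, Rab23 and Rab27b were low, with highest class means of 10.9 CPM in T cells and 7.37 CPM in NK cells. Rab32 had 21.8 and 14.99 CPM over the 3 lymphocyte classes against 144 and 140 CPM (log2 fold change -2.93, SE 0.17, edgeR adjusted p = 2.25e-11). Rab38 had 0 UMIs in NK cells of both samples and at most 0.814 CPM in B and T cells, where the 0 of replicate 1 allows up to 4.71 and 9.66 CPM.

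Rab30 was not alike within lymphocytes, since B cells had 135 and 147 CPM, T cells 9.66 and 8.14 CPM and NK cells 23.9 and 16.98 CPM. Its averaged level of 56.2 and 57.3 CPM against 80.9 and 72.2 CPM (log2 fold change -1.54, SE 0.18, edgeR adjusted p = 1.03e-06) averages over these, and B cells lay above resident cDCs in both samples. Rab11a, at 52.1 and 63.0 CPM against 111 and 111 CPM, stood at the bound (log2 fold change -1.01, SE 0.13, edgeR adjusted p = 2.06e-06). It was not called under 4 other ways of processing or against cDC2s alone (-0.52). The call of Rab7b, at 4.41 and 5.17 CPM against 168 and 171 CPM (log2 fold change -2.71, SE 0.26, edgeR adjusted p = 8.23e-08), was lost against cDC2s alone as well (-0.57).

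Rab37 had 27.6 and 37.4 CPM in lymphocytes against 11.3 and 9.48 CPM (log2 fold change 1.66, SE 0.23, edgeR adjusted p = 5.45e-06) and was not called against cDC2s alone (0.88). NK cells carried most of it, at 55.7 and 64.5 CPM. Without cDC1s 6 Rab genes were called in lymphocytes in place of 9, beside 19.8% of all genes. The calls of Rab6b and Rab27b were also lost there. Rab27a, needed to release cytotoxic granules, was highest in NK cells (92.8 and 64.5 CPM) and T cells (70.9 and 63.5 CPM), which overlapped, and B cells had 10.99 and 16.2 CPM.

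Some Rab genes had class means near each other. Rab2a, of traffic between the endoplasmic reticulum and the Golgi, had class means within 1.17-fold. Those of Rab11b, Rab5a, Rab5b, Rab10, Rab12, Rab18 and Rab6a stayed under 2-fold. Samples of a class could lie further apart, as for Rab2a in pDCs, at 128 and 253 CPM. For Rab10, Rab5a, Rab5b and Rab6a both samples of the highest class still lay above both of the class next by mean. For Rab5a, highest in pDCs at 79.96 and 68.6 CPM, T cells of replicate 2 reached 73.3 CPM. Rab1a had 276 and 274 CPM in macrophages and 112 to 188 CPM elsewhere, while Rab1b was highest in NK cells, at 167 and 197 CPM. Rab18, found at lipid droplets, ranged from 41.6 to 112 CPM and Rab6a from 83.6 to 175 CPM. Rab35, of fast recycling, was between 28.9 and 74.7 CPM, Rab22a between 21.7 and 102 CPM, Rab28 between 9.66 and 31.8 CPM and Rab40c between 13.8 and 34.5 CPM. Rab2b, which overlaps Tox4 on the opposite strand, ranged from 3.22 to 50.9 CPM and Rab19 from 0 to 47.5 CPM, and for both the highest class mean was in NK cells.

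Related Rab genes were set side by side. Of 15 pairs of close relatives, 9 had both genes at 20 CPM in a class. In 1 of the 9, Rab7 and Rab7b, both were highest in the same class. The same was not counted for unrelated genes. For Rab2a, Rab2b, Rab6b, Rab8a, Rab11b, Rab22a and Rab38 the highest class was not clear of the next in both samples, so the pairs do not show that relatives differ. Rab32 was highest in cDC1s and Rab38 in macrophages, and Rab38 was at 8.36 and 10.5 CPM in cDC1s. Rab11a was highest in cDC1s, where it had 182 and 184 CPM, and Rab11b in macrophages, at 216 and 179 CPM. For 4 pairs only 1 gene reached 20 CPM, as for Rab27a, whose relative Rab27b had at most 7.95 CPM in any class sum. Among the genes that overlap a neighbour on the same strand, Rab4a had 14 UMIs over the 9 classes, beside 10852 for Gm20388, so its low level is uncertain.

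Within macrophages, cells with a UMI of Siglec1, the gene for CD169 by which marginal metallophilic macrophages (MMMs) are known, were set against those with none, 112 and 56 cells against 181 and 74. Of 40 Rab genes tested, 0 were called by edgeR, beside 0.021% of the 9528 genes. An unadjusted p of 0.05 was passed by 3 Rab genes, and by 348 of the 9528 genes. By DESeq2 0 were called and 1 passed unadjusted, a count not made for all genes. The summed counts do not show that the subsets are alike, and the median log2 fold change of the Rab genes was 0.02.

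Within cDC1s, the 116 and 113 cells with a UMI of Cd207, which encodes Langerin, were set against the 568 and 457 with none. Of 41 Rab genes 0 were called, beside 0.362% of 11054 genes. An unadjusted p under 0.05 was found for 3 Rab genes, and for 1335 of the 11054 genes. By adjusted p alone 1 gene passed, beside 0.85% of all genes. It was Rab7b, at 565 and 562 CPM in the Langerin+ cDC1s and 473 and 482 CPM in the others (log2 fold change 0.33, SE 0.06, edgeR adjusted p = 0.0361, DESeq2 adjusted p = 0.0379). With the sample as a block, 3 passed by adjusted p, Rab7b, Rab7 and Rab10, beside 5.94% of all genes. The median total was 22445 and 23444 UMIs in cells with a Cd207 UMI against 19023.5 and 20248, and the part of depth in these differences was not tested.

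The genes that act on Rab GTPases were taken from a list of 109 exchange factors, TBC proteins and effectors, of which 108 were in the tables and 99 were tested. Against resident cDCs, 17 were called higher and 16 lower in macrophages, 14 and 2 in mature DCs, 8 and 5 in pDCs and 7 and 17 in lymphocytes. Between cDC1s and cDC2s, 8 were higher and 9 lower in cDC1s, and between the cDC2 classes 0 were higher and 2 lower in DCIR2 cDC2s. As shares of the 99 these were 33.3%, 16.2%, 13.1%, 24.2%, 17.2% and 2.02%, beside the 31%, 15.8%, 6.75%, 19.7%, 16.8% and 3.54% of all genes given above.

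In macrophages, Rab3il1, an exchange factor of the Rab3 and Rab8 proteins, was at 216 and 171 CPM against 3.70 and 4.22 CPM in resident cDCs (log2 fold change 6.36, SE 0.19, edgeR adjusted p = 4.84e-15). Lrrk2, the kinase that phosphorylates Rab8 and Rab10, was lower, at 12.8 and 13.1 CPM against 292 and 259 CPM (log2 fold change -4.33, SE 0.18, edgeR adjusted p = 6.91e-14). Rab11fip1, an effector of the Rab11 proteins, had 11.8 and 10.2 CPM against 103 and 109 CPM (log2 fold change -3.09, SE 0.23, edgeR adjusted p = 4.67e-10). Rab11b itself was at 216 and 179 CPM in macrophages.

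In mature DCs, Mical3, a Rab8 effector at exocytic sites, was at 265 and 243 CPM against 41.1 and 41.7 CPM (log2 fold change 2.95, SE 0.12, edgeR adjusted p = 1.89e-13), in the class with the highest level of Rab8b. Tbc1d4, which switches off Rab10, had 2200 and 2297 CPM against 626 and 650 CPM (log2 fold change 2.07, SE 0.13, edgeR adjusted p = 1.28e-10). In lymphocytes the same gene was lower, at 162 and 156 CPM (log2 fold change -2.34, SE 0.12, edgeR adjusted p = 7.98e-12). Sytl3, a Rab27 effector, was higher in lymphocytes, at 61.7 and 91.2 CPM against 0.524 and 0.578 CPM (log2 fold change 6.09, SE 0.56, edgeR adjusted p = 4.53e-08).

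In cDC1s, Rin2, an exchange factor of the Rab5 proteins, was at 10.8 and 8.55 CPM against 159 and 147 CPM in cDC2s (log2 fold change -3.81, SE 0.16, edgeR adjusted p = 6.41e-13). Dennd3, an exchange factor of Rab12, had 7.38 and 6.35 CPM against 62.6 and 57.6 CPM (log2 fold change -2.92, SE 0.23, edgeR adjusted p = 4.10e-09). Rabgap1l, a TBC protein, was higher, at 163 and 130 CPM against 54.3 and 55.3 CPM (log2 fold change 1.59, SE 0.14, edgeR adjusted p = 2.00e-08), and it was higher in mature DCs too, at 351 and 368 CPM against 90.7 and 80.3 CPM in resident cDCs (log2 fold change 2.30, SE 0.13, edgeR adjusted p = 3.51e-11).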

How the data were processed

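Per the file headers, the authors made the deposited UMI counts with the BD Rhapsody WTA Analysis Pipeline 1.12.1 on GRCm38 with GENCODE vM19, correcting UMIs for errors and counting intronic reads. The intronic reads mean that unspliced message is part of every level. Total counts were 46953398 and 43137746 UMIs. Close to the study's methods, cells under 200 genes or beyond the mean ± 3 median absolute deviations were dropped, leaving 5653 of 6393. The deviations were scaled as for normal data and taken for UMIs, genes and the mitochondrial share of UMIs. The study names the number of mitochondrial genes in place of that share. The study's filter on genes seen in few cells was not applied. Doublets were not called, and the 610 kept cells that met more than 1 class rule went to the first, so a class can hold some (cells meeting a single rule were tried).

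Classes used these least UMIs, in this order: macrophage Vcam1 20 and C1qb 5, mature DC Ccr7 2 and Fscn1 1, cDC1 Clec9a 2 and Xcr1 1, pDC Siglech 3 and Ccr9 1, B Cd79a 3, T Cd3e 2, NK Ncr1 1, DCIR2 cDC2 Clec4a4 2, CLEC10A cDC2 2 of Clec10a plus Cd209a. These 14 genes were taken out of the fit. Raw counts were summed per class and sample and tested with edgeR 4.0.16 (TMM, filterByExpr, glmQLFit, glmQLFTest) in R 4.3.3, with Benjamini-Hochberg adjustment over all genes, and DESeq2 1.42.0 as an alternative. The number of mice behind each sample is unknown, so p-values measure the spread between these 2 samples, which may be technical. Class sums of a replicate come from the same sample. Over the 36 pairs of classes, the correlation of same-sample deviations ran from -0.05 to 0.13, and the blocked fit was an alternative.

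Fold changes were given for up to 5 called genes per direction (3 for the regulators) moving alike in both samples and with 20 CPM in the higher group, and genes outside this rule are said to be named after their values were seen. Rab13, Rab19, Rab23, Rab24, Rab27b and Rab34 are named with no fold change, and Rab6b only with that of macrophages against cDC2s alone. The genes, roles, lists and tests were chosen with earlier results of these data known. Shares of cells with a UMI cover counting error only. Gene positions are from GENCODE M21 on GRCm38, and promoters from RefSeq GRCm38.p6. Alternatives were DESeq2, library totals, no filters on counts or cells, single-rule cells, thinning to 4000 UMIs, the sample as a block, only the compared classes, no fold bound, leaving out a replicate and, chosen after seeing the data, a reference without cDC1s.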

Additional observations from a re-analysis of the deposited data

How the results depend on the processing

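With no bound on the fold change, the Rab genes called were 27 in macrophages (10 with the bound), 18 in mature DCs (6), 7 in pDCs (4), 25 in lymphocytes (9), 18 in cDC1s against cDC2s (7), 3 between the cDC2 classes (1) and 1 between cDC1s with and without Cd207 (0). After thinning cells to 4000 UMIs, 0 were called between the cDC2 classes. Leaving cDC1s out of the reference, chosen after seeing the data, gave 11 in mature DCs and 2 in pDCs. It also turned Rab7b in macrophages from a log2 fold change of -1.41 to 0.73, the high level of Rab7b in cDC1s being part of the first reference only. Under the other alternatives run, with the sample as a block among them, the count of called Rab genes stayed within 1.5 times in each comparison, while its split in lymphocytes moved from 4 higher and 5 lower to 2 and 6 with no filter on low counts and 2 and 5 after thinning. Without a fold bound, the block took the Cd207 comparison from 1 to 3 Rab genes. Of 209 recomputed tests for the 24 fold changes that met the naming rule, 193 kept their call, 15 kept their direction and lost the call, and 1 reversed. Rab7b in pDCs is among the 24, though its fold is not printed. Leaving out a replicate gave 48 fold changes with no test, all in the direction first found. The pDC class could not be fitted for cells of a single rule, with 4 and 7 cells. Depth limits the pDC values most, where 0 UMIs allow 16.0 and 10.8 CPM.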
